A study of Mus musculus with 6 samples.

Results

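The circadian clock genes of the mouse heart were followed in 10 transcripts: Arntl (also called Bmal1) and Clock, the activators, Per1, Per2, Per3 and Ciart, repressors of those activators, Nr1d1 and Nr1d2, nuclear receptors that repress Arntl, and Dbp and Tef, output transcription factors. They were chosen by name, with the table holding Arntl under its older symbol, and all 10 were found among its 19320 genes and passed the filter on low reads. RNA-seq had been done on samples labelled as mouse heart in 3 groups of 2 libraries, each labelled 2 weeks: sham-operated wild-type mice, wild-type mice with TAC (transverse aortic constriction, a band on the aorta that loads the left ventricle with pressure), and mice with TAC and Snai1 knockdown. The series writes the knockdown as shSnai1, read here as a short hairpin RNA against Snai1, the gene of the repressor Snail, and its title speaks of EndoFP, a term it does not explain. The sources used here do not give how the hairpin was delivered, which cells it reached, the age and strain of the mice or the hour at which hearts were taken. The protocol names both whole heart and cultured cells, and which of them gave the RNA is not settled here. The labels do not say whether the libraries of 1 group are from different mice, so the p-values rest on a spread between libraries that may be technical.

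In the clock, the heterodimer of CLOCK and BMAL1 binds E-boxes and switches on the Per, Cry, Nr1d1, Dbp and Ciart genes. PER and CRY proteins then block the heterodimer, and the products of Nr1d1 and Nr1d2, REV-ERB alpha and beta, repress Arntl, so that Arntl RNA runs in the opposite phase to that of its targets. DBP, TEF and their relative HLF act through D-boxes, the sites at which the repressor NFIL3 opposes them. Heart muscle cells keep such a clock of their own, which is known for timing metabolism and ion channel genes, and the levels of these transcripts in one heart depend strongly on the hour at which it is taken.

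Promoters of 4 of the genes are shown because they carry the letters through which clock factors are known to act. RefSeq windows of the 250 bases before a transcription start (GRCm38.p6) were found for 9 of the 10 genes, in 14 windows in all, and both strands were searched. Per2 was the gene with no window. Capitals mark the E-box CACGTG, the variant E-box CACGTT and the D-box TTATNTAA, and each sequence is on the strand of its gene.
Ciart: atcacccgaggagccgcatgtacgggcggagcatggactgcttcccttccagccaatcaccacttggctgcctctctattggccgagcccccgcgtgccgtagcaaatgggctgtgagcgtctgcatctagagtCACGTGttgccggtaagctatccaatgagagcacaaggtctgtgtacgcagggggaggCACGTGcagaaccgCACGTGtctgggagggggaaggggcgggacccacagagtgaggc
Per1: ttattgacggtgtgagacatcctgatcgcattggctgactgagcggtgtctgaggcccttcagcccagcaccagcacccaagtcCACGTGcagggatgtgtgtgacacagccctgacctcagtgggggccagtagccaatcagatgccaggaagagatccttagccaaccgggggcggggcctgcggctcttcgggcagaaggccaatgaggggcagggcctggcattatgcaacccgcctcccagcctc
Per3: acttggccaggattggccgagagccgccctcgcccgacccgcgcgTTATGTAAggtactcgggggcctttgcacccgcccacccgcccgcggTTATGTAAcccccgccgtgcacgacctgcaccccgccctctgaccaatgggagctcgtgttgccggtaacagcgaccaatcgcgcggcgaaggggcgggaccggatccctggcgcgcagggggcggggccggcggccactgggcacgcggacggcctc
Nr1d1: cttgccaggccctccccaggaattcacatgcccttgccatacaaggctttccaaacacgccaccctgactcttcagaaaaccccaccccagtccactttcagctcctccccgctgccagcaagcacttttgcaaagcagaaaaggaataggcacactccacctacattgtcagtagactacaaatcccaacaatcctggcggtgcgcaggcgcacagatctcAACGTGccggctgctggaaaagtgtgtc
The Ciart window (chr3:95882229-95882478, minus strand) held 3 copies of the E-box, at bases 116 to 111, 58 to 53 and 44 to 39 before the start. The Per1 window (chr11:69098699-69098948, plus strand) held 1, at bases 166 to 161. The Per3 window (chr4:151044666-151044915, minus strand) held 2 D-boxes, at bases 205 to 198 and 158 to 151, and the Nr1d1 window (chr11:98775378-98775627, minus strand) held the variant E-box on its opposite strand, at bases 28 to 23. Counted by window, an E-box was present in 4 of the 14 (of Ciart, Per1 and Tef, the last in both of its windows), or 28.6%, against 6.02% of 32817 windows of the same length over all genes. A D-box was present in 2 of 14 (of Per3 and Tef), or 14.3%, against 3.17%, and the variant E-box in 1 of 14, against 3.85%. Windows of the same gene are not independent. The cores TAGGTCA and TGGGTCA of the REV-ERB element and the cyclic AMP element TGACGTCA were found in 0 of the 14, against 2.24%, 3.25% and 1.55% of windows. A match describes letters and not a bound site, and starts differ between annotations. By GENCODE, exons of the gene itself hold all 250 bases of 1 Tef window (chr15:81802423-81802672), 159 of the Dbp window and 138 of 1 Clock window. They also hold 46 of 1 Arntl window, 23 of the Ciart window, 21 of the Nr1d2 window and 1 base of the Per1 window shown. Exons of another gene hold 167 bases of another Clock window and 191 of the same Tef window. That Tef window is 1 of the 4 with an E-box and 1 of the 2 with a D-box, so these shares are not of promoters alone. The RefSeq start of Nr1d1 lies 44 bases outside the gene, and the bases searched for after that start were in none of its GENCODE transcripts. Positions before the start thus depend on the annotation.

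The 2 deposited columns of each group behaved as mixtures of 2 libraries in shares of 60% and 40%, which were resolved into whole reads before analysis. The resolved libraries held between 14835957 and 18247812 reads. Levels are given as CPM, counts per 1000000 reads of the library. Snai1 had 5.12 and 3.45 CPM after sham surgery, 4.48 and 4.24 after TAC and 3.41 and 2.74 after TAC plus knockdown. Both knockdown libraries were the lowest of the 6, but few reads were counted. Knockdown replicate 1 (52 reads) was nearly level with sham replicate 2 (60 reads). The difference of knockdown from TAC was not called. The 6 cardiomyocyte markers summed to between 77940 and 90769 CPM in each library, and the libraries held little lung RNA (0 to 0.287 CPM over 2 markers found of 3). The 5 endothelial markers summed to 1033 to 1380 CPM, the 5 fibroblast markers to 970.6 to 1296 and the 1 brown fat marker found of 3 to 34.6 to 40.5. Sham replicate 1 stood apart with 8.97 CPM over 5 lymphocyte markers, against 0.663 to 2.43 in the others, and with 1738 CPM over 3 globins found of 4, against 744.3 to 1108. In bulk samples, fewer cells of a type and less RNA per cell cannot be told apart.

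Per exonic length, the activator Arntl was by far the scarcest transcript and its targets Nr1d1 and Dbp the most abundant. Lengths were the union of the annotated exons in GENCODE M21, which may differ from the models the authors counted on. Over the 6 libraries, the level in CPM per kilobase was between 43.1 and 77.9 for Nr1d1 and between 36.4 and 57.95 for Dbp, ranges that overlapped. Nr1d2 (23.6 to 30.1), Tef (25.1 to 29.9) and Per1 (15.5 to 24.9) followed, with Nr1d2 and Tef not separated and the highest library of Per1 exceeding only the lowest of Nr1d2. Per2 (6.41 to 11.9 CPM per kilobase) and Ciart (4.11 to 13.5) overlapped, as did Ciart with Per3 (4.31 to 6.21). Clock (3.13 to 4.03 CPM per kilobase) lay below Per3 in every library, and Arntl (0.444 to 0.61) lay below Clock in every library. Arntl rested on only 51 to 80 reads per library, so counting error alone gave an SD of 0.24 to 0.27 on the log2 difference of 1 library from the other of its group, larger than for any of the other clock genes (at most 0.14).

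**Figure D1:**
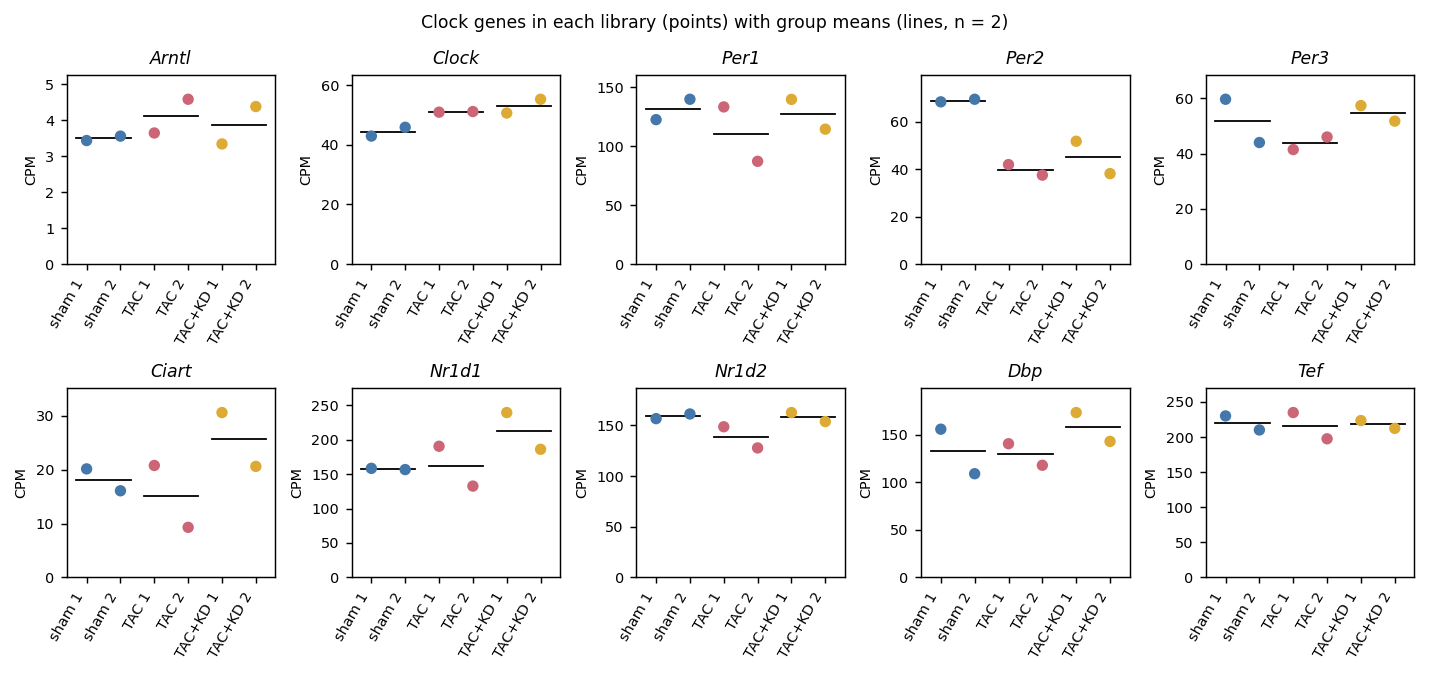
Level of each clock gene in CPM (vertical axes, each from 0) in the 6 libraries, with points for libraries, short lines for group means and TAC+KD for TAC with Snai1 knockdown. Per2 sits at 68.4 and 69.5 CPM in sham and at 51.8 or less in the 4 libraries with TAC, and Ciart is lowest in TAC replicate 2.

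The first question was whether the clock transcripts differed between the pressure-loaded and the sham heart. None of the 10 passed the test between TAC and sham (limma, Benjamini-Hochberg adjusted p below 0.05 over 14447 genes), where 0.159% of all genes did, 0.0831% higher and 0.0761% lower. Per2 was the nearest, at 0.575 times the sham level, and alone had an unadjusted p below 0.05, where 9.57% of all genes had one. Per2 was called with robust empirical Bayes, and limma-voom called 0 of the 10. The libraries of the groups did not overlap for 2 genes higher in TAC (Clock and Arntl), beside 23.7% of all genes, and for 2 lower (Per2 and Nr1d2), beside 16.4%. The median log2 fold change of the 10 was -0.12 (7 negative), beside 0.04 over all genes tested. That sign rested on single libraries: the median was 0.08 without TAC replicate 2 (7 positive), 0.005 without sham replicate 1 (5 positive), -0.19 without sham replicate 2 and -0.20 without TAC replicate 1. The number with an unadjusted p below 0.05 was 2 without sham replicate 2 and 4 without TAC replicate 1.

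Per2, a repressor of CLOCK and BMAL1 that also responds to cell signals and lies on chromosome 1 from 91415982 to 91459324 (minus strand, GRCm38), had 68.4 and 69.5 CPM after sham surgery, 41.95 and 37.5 after TAC and 51.8 and 38.1 after TAC plus knockdown. Both sham libraries lay above the 4 libraries with TAC. The group means were 68.95 ± 0.764 CPM in sham and 39.7 ± 3.14 in TAC (SD, n = 2), a log2 fold change of -0.80 ± 0.15 (SE; limma, adjusted p = 0.0525). Its unadjusted p ranked at position 25 of the 14447 genes. The adjusted p was 0.034 with median ratio scaling, 0.0488 with quantile normalization, 0.0453 with 2 reads added before the log, 0.0365 with robust empirical Bayes, and 0.0449 and 0.0388 without knockdown replicate 1 or 2. It was 0.0518 with limma-voom, 0.0771 with no filter, and 0.12, 0.173, 0.101 and 0.448 without sham replicate 1, sham replicate 2, TAC replicate 1 and TAC replicate 2. The fold change itself lay between -0.88 and -0.72 in all of these fits.

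Neither Per1 nor Per3 passed the test between TAC and sham. Per1, which is also known to respond to glucocorticoids and to cyclic AMP, had 122.6 and 139.9 CPM after sham surgery, 133.4 and 87.2 after TAC and 139.8 and 114.5 after TAC plus knockdown. TAC replicate 1 lay among the sham libraries and TAC replicate 2 below all the others. Its log2 fold change between TAC and sham was -0.28 ± 0.17 (limma, adjusted p = 0.632), and it was 0.026 without TAC replicate 2. Per3, the PER gene regarded as dispensable for the core loop, had 59.65 and 44.0 CPM after sham surgery, 41.45 and 46.0 after TAC and 57.4 and 51.7 after TAC plus knockdown. Sham and TAC overlapped, and the log2 fold change was -0.23 ± 0.15 (limma, adjusted p = 0.665).

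Clock had 42.9 and 45.9 CPM after sham surgery, 50.96 and 51.2 after TAC and 50.7 and 55.3 after TAC plus knockdown, so that both sham libraries were the lowest of the 6. The log2 fold change between TAC and sham was 0.20 ± 0.12 (limma, adjusted p = 0.642), with a 95% interval from -0.06 to 0.47. Arntl had 3.44 and 3.56 CPM after sham surgery, 3.65 and 4.59 after TAC and 3.34 and 4.38 after TAC plus knockdown. The 2 TAC libraries were above both sham libraries, and the log2 fold change was 0.22 ± 0.32 (limma, adjusted p = 0.868). The REV-ERB beta gene Nr1d2 had 157 and 161 CPM after sham surgery, 149 and 128 after TAC and 162.6 and 154 after TAC plus knockdown, lower in both TAC libraries than in all the others. Its log2 fold change between TAC and sham was -0.21 ± 0.11 (limma, adjusted p = 0.58).

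The remaining transcripts overlapped between TAC and sham. Nr1d1 had 158.5 and 157 CPM after sham surgery and 191 and 133 after TAC, on either side of the sham level, and its log2 fold change was 0.01 ± 0.16 (limma, adjusted p = 0.985). Dbp had 156 and 109 CPM after sham surgery and 141 and 118 after TAC, with the TAC libraries inside the sham range, and its log2 fold change was -0.02 ± 0.16 (limma, adjusted p = 0.98). Tef, the steadiest of the 10, had 230.1 and 210.1 CPM after sham surgery, 234.9 and 197.5 after TAC and 223.5 and 212.4 after TAC plus knockdown. Its 95% interval for TAC against sham ran from -0.27 to 0.21 on the log2 scale. For Ciart, the corresponding interval was wide, from -1.01 to 0.26. Counting here was not known to use strand, so reads of overlapping genes cannot be told apart: 18.0% of the exonic bases of Dbp are shared with Sphk2 on the other strand (244 to 481 reads in all per library) and 8.5% of those of Nr1d1 with Thra (1528 to 1918 reads).

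**Figure D2:**
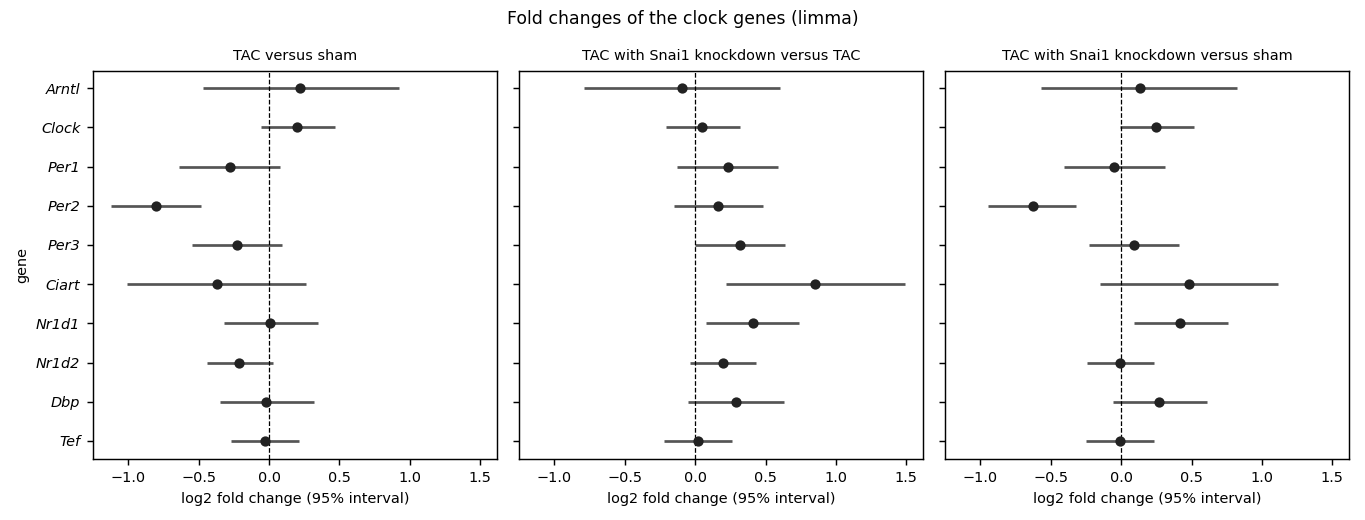
Log2 fold change of each clock gene (points) with its 95% interval from the limma fit (lines) in the 3 comparisons, which share libraries. For Per2 the intervals run from -1.12 to -0.48 between TAC and sham and from -0.95 to -0.32 between knockdown and sham, and do not include 0. Nor do those of Ciart (0.22 to 1.49) and Nr1d1 (0.08 to 0.74) between knockdown and TAC, and of Nr1d1 (0.09 to 0.76) between knockdown and sham. The intervals are for single genes and are not adjusted for the number of genes tested.

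The second question was whether Snai1 knockdown altered these transcripts in the loaded heart. None of the 10 passed the test between knockdown and TAC (limma, adjusted p below 0.05), and 0.00% of all genes did. At an unadjusted p below 0.05 stood 300 genes of all tested, or 2.08%, and 2 of the 10 (Ciart and Nr1d1). Neither limma-voom nor robust empirical Bayes called any of them either, with 3 of the 10 at an unadjusted p below 0.05 in each. That number was 0 without TAC replicate 2 or without knockdown replicate 1, and 4 without any 1 of the other libraries. The fold change was positive for 9 of the 10 and negative for Arntl, with a median of 0.21 on the log2 scale beside 0.02 over all genes. The median was 0.09 without TAC replicate 2, where Tef and Per1 were negative and Arntl positive, 0.13 without knockdown replicate 1 and 0.38 without knockdown replicate 2. The groups did not overlap for Dbp, Per3 and Nr1d2, all 3 higher with knockdown, beside 16.0% of all genes, and for 0 genes lower, beside 12.4%.

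Ciart, which encodes the repressor CHRONO and had the widest range of the 10, lies on chromosome 3 from 95878503 to 95882251 (minus strand). It had 20.15 and 16.1 CPM after sham surgery, 20.8 and 9.29 after TAC and 30.6 and 20.6 after TAC plus knockdown. TAC replicate 1 lay just above knockdown replicate 2, so that the groups overlapped. The log2 fold change between knockdown and TAC was 0.85 ± 0.30 (limma, adjusted p = 0.999; unadjusted p = 0.012), and it was between 0.27 and 1.43 when 1 library was left out. TAC replicate 2 and knockdown replicate 1 were the ends of this range, with 160 and 467 reads.

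Nr1d1, the gene of REV-ERB alpha on chromosome 11 from 98767932 to 98775333 (minus strand), had 239.6 and 186 CPM in the knockdown libraries, compared with 191 and 133 after TAC alone. The higher TAC library exceeded the lower knockdown library. The log2 fold change was 0.41 ± 0.16 (limma, adjusted p = 0.999; unadjusted p = 0.0195), and it ran from 0.15, without TAC replicate 2, to 0.67 when 1 library was left out. Dbp had 173.5 and 143 CPM in the knockdown libraries, compared with 141 and 118 after TAC alone, without overlap, and its log2 fold change was 0.29 ± 0.16 (limma, adjusted p = 0.999). For Per3 the fold change was 0.32 ± 0.15 and for Nr1d2 it was 0.20 ± 0.11 on the log2 scale. The fold changes of Per1 (0.23 ± 0.17), Per2 (0.16 ± 0.15), Clock (0.05 ± 0.12), Tef (0.02 ± 0.11) and Arntl (-0.09 ± 0.32) were smaller than those of Ciart and Nr1d1. The intervals do not show these genes to be the same in both groups: that of Per2 ran from -0.15 to 0.48.

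Knockdown was also set against sham, a comparison that shares libraries with the others. None of the 10 passed (limma, adjusted p below 0.05), where 0.242% of all genes did, 0.138% higher and 0.104% lower, and Per2 and Nr1d1 had an unadjusted p below 0.05, where 8.80% of all genes had one. Neither limma-voom nor robust empirical Bayes called any of them, with 2 of the 10 at an unadjusted p below 0.05 in each. That number was 1 without sham replicate 2 or knockdown replicate 1, and 2 or 3 without any 1 of the others. Per2 stood at 45.0 ± 9.65 CPM with knockdown against 68.95 ± 0.764 in sham (SD, n = 2), a difference of -0.63 ± 0.15 on the log2 scale (SE; limma, adjusted p = 0.152). Nr1d1 was at 213 ± 37.8 CPM against 157.6 ± 1.26, a difference of 0.42 ± 0.16 on the log2 scale (SE; limma, adjusted p = 0.441). The groups did not overlap for Nr1d1, Ciart and Clock, which were higher with knockdown, beside 25.4% of all genes, and for Per2, which was lower, beside 13.8%.

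Read ratios of gene pairs within a library do not depend on how libraries are scaled. The pairs were chosen after the values were seen and the reads are not corrected for length. Reads of Per2 per read of Nr1d1 were 0.432 and 0.4435 after sham surgery, 0.22 and 0.283 after TAC and 0.216 and 0.205 after TAC plus knockdown. Sham was the highest in both libraries and the 4 libraries with TAC did not reach it. Reads of Per2 per read of Dbp were 0.439 and 0.637 in sham and between 0.2665 and 0.318 in the others, and reads of Per2 per read of Per1 were 0.558 and 0.497 in sham and between 0.3145 and 0.43 in the others. These ratios all share the reads of Per2 and are not separate observations. Ciart over Per2 was 0.295 and 0.231 in sham, 0.495 and 0.248 after TAC and 0.591 and 0.540 after TAC plus knockdown. For that pair TAC replicate 2 lay between the sham libraries. The ratio of Nr1d1 to its target Arntl did not order the libraries by group: it was 46.1 and 44.0 after sham surgery, 52.3 and 28.9 after TAC and 71.7 and 42.5 after TAC plus knockdown.

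**Figure D3:**
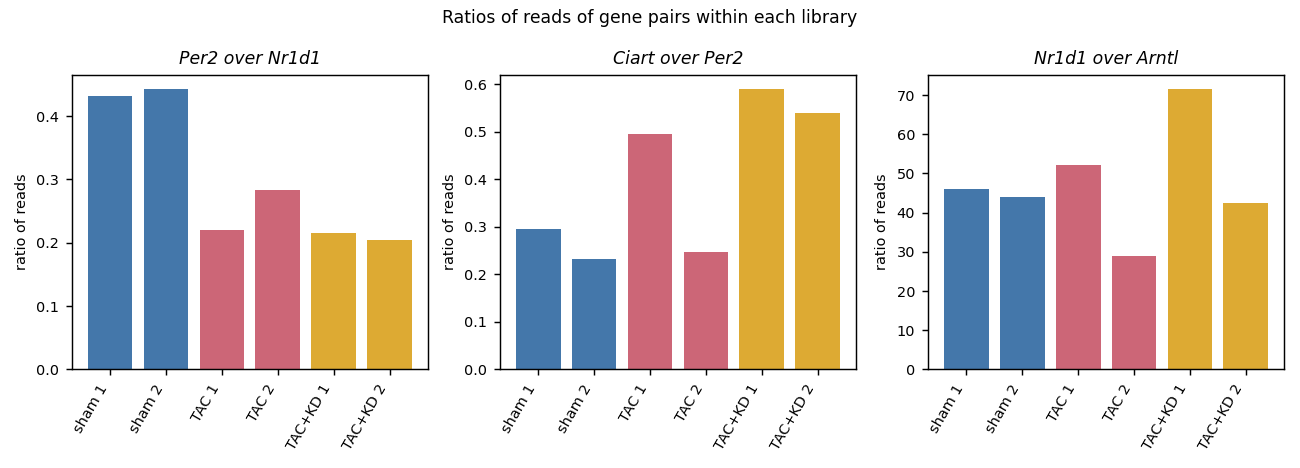
Ratio of reads of 2 clock genes within each library (bars, vertical axes from 0) for Per2 over Nr1d1, Ciart over Per2 and Nr1d1 over Arntl. The first ratio is 0.432 and 0.4435 in sham and at most 0.283 in the other 4 libraries, while the last spans 28.9 to 71.7 and is lowest in TAC replicate 2 and highest in knockdown replicate 1.

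Libraries of the same group differed from each other in the clock genes. TAC replicate 2 was the lowest of the 6 libraries for 6 of the 10 genes (Tef, Per1, Per2, Nr1d1, Nr1d2 and Ciart), where it was the lowest for 12.3% of the 10530 tested genes with mean reads in the same range. For Per2 it was nearly level with knockdown replicate 2 (37.5 and 38.1 CPM). It was also the highest for Arntl, as for 21.6% of those genes. Knockdown replicate 1 was the highest for 4 (Dbp, Nr1d1, Nr1d2 and Ciart), where it was the highest for 25.0% of those genes. It was the lowest for Arntl, as for 9.2% of them. For Arntl these places were near ties within counting error. TAC replicate 2 had 79 reads and knockdown replicate 2 had 80 (4.59 and 4.38 CPM). Knockdown replicate 1 and sham replicate 1 each had 51 (3.34 and 3.44 CPM). Between the TAC libraries, the absolute log2 difference was 1.16 for Ciart, 0.61 for Per1 and 0.52 for Nr1d1. Those 3 exceeded 0.48, the 90th percentile of the 10530 genes, and counting error would give SDs of 0.14, 0.047 and 0.039. The median over the 10 genes was 0.25 in TAC, 0.28 with knockdown and 0.11 in sham, beside 0.17, 0.16 and 0.17 over the 10530 genes. In sham, Dbp differed by 0.52 and Per3 by 0.44, both higher in replicate 1, while Per2 and Nr1d1 each differed by 0.02. With knockdown, Ciart differed by 0.57 and Per2 by 0.44, both higher in replicate 1. Whether the hearts of a group were taken at 1 hour of the day is not stated in the sources used here.

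**Figure D4:**
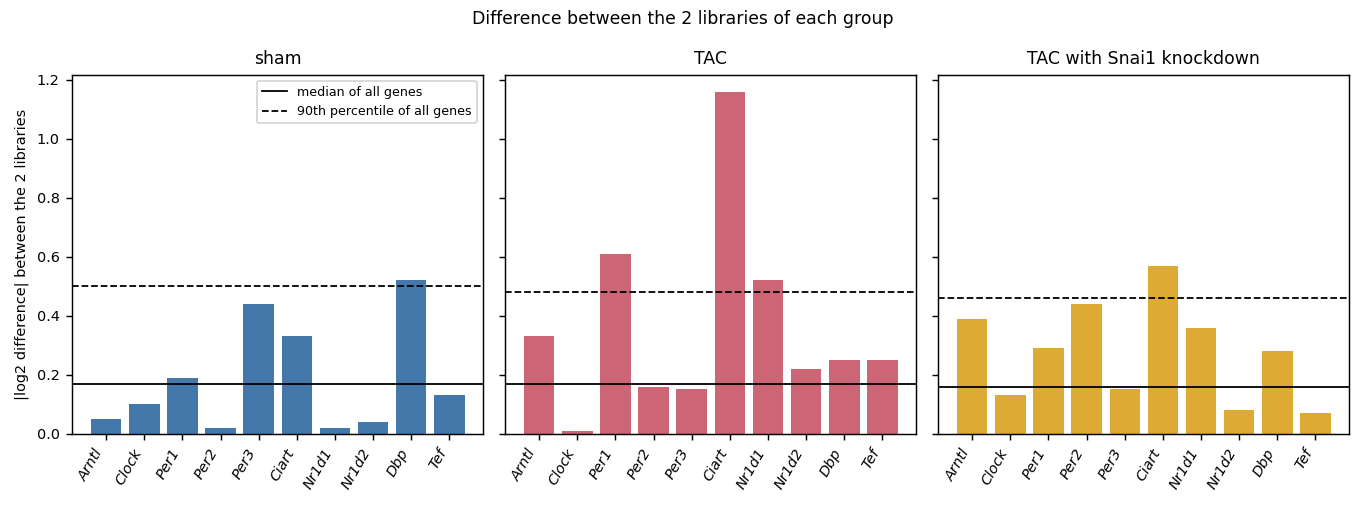
Absolute log2 difference of CPM between the 2 libraries of each group for each clock gene (bars), with the median (solid line) and the 90th percentile (dashed line) of 10530 genes of similar reads. Ciart, Per1 and Nr1d1 lie above the dashed line in TAC, Dbp in sham and Ciart with knockdown.

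Partners and regulators of the clock were described from a list of 18 genes, all of them tested. None was called in any of the 3 comparisons (limma, adjusted p below 0.05), where 0.159%, 0.00% and 0.242% of all genes were. By limma 3, 1 and 1 of the 18 had an unadjusted p below 0.05, beside 9.57%, 2.08% and 8.80% of all genes. Between TAC and sham 7 had a positive and 11 a negative fold change, with a median of -0.06 on the log2 scale beside 0.04 over all genes. The genes named here had the widest range over the libraries. Hlf, the relative of Dbp and Tef, had 88.2 and 79.55 CPM after sham surgery, 78.7 and 41.75 after TAC and 71.0 and 59.8 after TAC plus knockdown. TAC replicate 2 was again the lowest, and the log2 fold change between TAC and sham was -0.55 ± 0.21 (limma, adjusted p = 0.406). Npas2, which can take the place of Clock beside BMAL1, had 2.90 and 2.585 CPM after sham surgery, 2.76 and 5.17 after TAC and 2.95 and 2.08 after TAC plus knockdown. It was highest in TAC replicate 2, on 89 reads against 38 to 50 in the others. Nfil3 had 8.29 and 11.1 CPM after sham surgery, 9.73 and 10.6 after TAC and 6.03 and 8.275 after TAC plus knockdown. Both knockdown libraries were the lowest, but knockdown replicate 2 (151 reads) and sham replicate 1 (123 reads) were nearly level. The cryptochrome gene Cry1 had 16.85 and 12.5 CPM after sham surgery, 11.55 and 11.6 after TAC and 11.7 and 10.03 after TAC plus knockdown, with both sham libraries the highest. Its log2 fold change was -0.32 ± 0.21 between TAC and sham (limma, adjusted p = 0.662) and -0.42 ± 0.21 between knockdown and sham (adjusted p = 0.6).

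**Figure D5:**
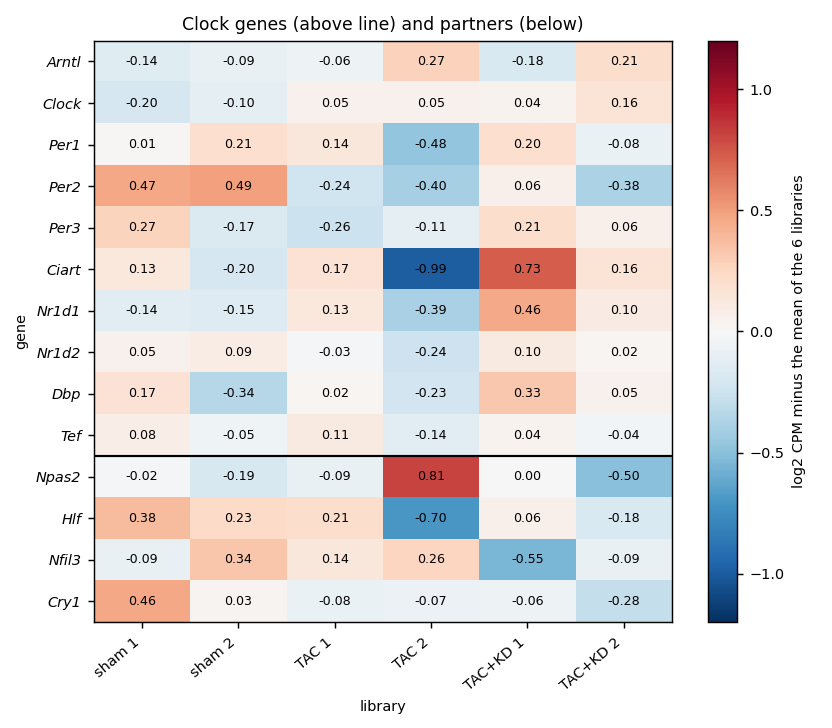
Log2 CPM of each gene minus its mean over the 6 libraries (colour and printed value) for the clock genes above the line and for the 4 partners with the widest range below it, with libraries in columns. In TAC replicate 2, Ciart is at -0.99, Hlf at -0.70, Per1 at -0.48 and Nr1d1 at -0.39, while Npas2 is at 0.81. Arntl is at 0.27 there and at 0.21 in knockdown replicate 2.

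Of 15 clock output genes, 14 were tested. Bdh1, a ketone body enzyme gene, rose between sham and TAC, with 172 and 145 CPM after sham surgery, 263.5 and 339 after TAC and 261.5 and 274 after TAC plus knockdown. Its log2 fold change was 0.92 ± 0.13 between TAC and sham (limma, adjusted p = 0.00848) and 0.76 ± 0.13 between knockdown and sham (adjusted p = 0.0306). The other 13 were not called in any comparison (limma, adjusted p below 0.05), where 0.159%, 0.00% and 0.242% of all genes were. An unadjusted p below 0.05 was found by limma for 2, 0 and 3 of the 14, beside 9.57%, 2.08% and 8.80% of all genes. Median log2 fold changes of the 14 were -0.08, -0.12 and -0.14 in the 3 comparisons, beside 0.04, 0.02 and 0.05 for every gene tested. Pdk4, which restrains glucose oxidation and follows feeding as well as the clock, differed more between the sham libraries (70.7 and 327 CPM) than between groups (114.5 and 164 in TAC, 75.1 and 88.5 with knockdown). The uncoupling protein gene Ucp3 also had its highest level in sham replicate 2, with 23.9 and 54.45 CPM after sham surgery, 25.9 and 34.3 after TAC and 21.6 and 18.3 after TAC plus knockdown. Tspan4, which encodes a tetraspanin, had 18.6 and 22.2 CPM after sham surgery, 22.3 and 29.3 after TAC and 28.1 and 26.1 after TAC plus knockdown.

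Glucocorticoid and stimulus-induced genes are set beside the PER genes because Per1 and Per2 are also known to respond to such signals. Of the 6 glucocorticoid targets, 0 were called (limma, adjusted p below 0.05) in any comparison, where 0.159%, 0.00% and 0.242% of all genes were. By limma 0 had an unadjusted p below 0.05, beside 9.57%, 2.08% and 8.80% of all genes. The 6 targets added up to 437.8 and 628 CPM after sham surgery, 537.6 and 437.4 after TAC and 547.8 and 504 after TAC plus knockdown. Tsc22d3, the gene of the glucocorticoid-induced leucine zipper, had 104 and 139.5 CPM after sham surgery, 120 and 79.15 after TAC and 121.5 and 96.9 after TAC plus knockdown. It was highest in sham replicate 2 and lowest in TAC replicate 2. Per1 was also lowest in TAC replicate 2, but was nearly level in sham replicate 2 and knockdown replicate 1 (139.9 and 139.8 CPM). Fkbp5, which encodes a chaperone of the glucocorticoid receptor, had 12.5 and 40.03 CPM after sham surgery, 23.3 and 18.4 after TAC and 16.2 and 21.3 after TAC plus knockdown. Cebpd (14.4 and 30.4 CPM) and Zbtb16 (51.3 and 106 CPM) were likewise higher in sham replicate 2 than in sham replicate 1. After TAC Cebpd had 20.6 and 20.4 CPM and Zbtb16 75.1 and 71.5. With knockdown they had 25.2 and 21.1 and 103 and 89.8 CPM. Fkbp5, Cebpd and Zbtb16 were thus lowest in sham replicate 1 and not in TAC replicate 2.

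The 8 immediate early genes added up to 196 and 245 CPM after sham surgery, 127 and 132.5 after TAC and 164 and 135 after TAC plus knockdown. Both sham libraries were the highest. Without Nr4a1 and Atf3, left out after the values were seen, the other 6 added up to 119.4 and 127.4 CPM in sham. In TAC they added up to 102.7 and 114.6 CPM, still below both sham libraries. With knockdown they added up to 121.7 and 104.7 CPM, which overlapped sham. Of the 8, only Nr4a1 was called, where 0.159%, 0.00% and 0.242% of all genes were in the 3 comparisons. It was lower in TAC than in sham (66.9 and 93.9 CPM in sham, 18.2 and 15.2 in TAC; log2 fold change -2.25 ± 0.20, limma, adjusted p = 0.000212) and lower with knockdown than in sham (38.7 and 26.25 CPM; -1.31 ± 0.20, adjusted p = 0.014). Between knockdown and TAC its log2 fold change was 0.93 ± 0.20 (limma, adjusted p = 0.999; unadjusted p = 0.000299), with both knockdown libraries above both TAC libraries. Atf3, a stress-induced regulator, had 9.50 and 23.55 CPM after sham surgery, 5.58 and 2.67 after TAC and 3.87 and 3.95 after TAC plus knockdown. Its log2 fold change between TAC and sham was -1.95 ± 0.40 (limma, adjusted p = 0.0685). Egr1 (11.05 to 21.3 CPM over the libraries), Junb (11.2 to 18.2) and Ier2 (12.1 to 15.85) did not separate sham from the rest. Fos and Dusp1, not called, were lower than both sham libraries in TAC (log2 fold changes -0.71 ± 0.47 and -0.26 ± 0.12) and with knockdown. Between TAC and sham the groups did not overlap for 4 of the 8, all lower, beside 16.4% of all genes. Between knockdown and sham they did not overlap for 5, all lower, beside 13.8%. The 4 platelet markers were also highest in sham (30.9 and 47.3 CPM, against 8.54 to 12.8), and the 5 macrophage markers lowest (151 and 140 CPM, against 188 to 274). The part of these signals in the level of Per2 was not tested.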

How the data were processed

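The authors deposited log2 values in 6 columns for 19320 gene symbols. Per the submitters' processing notes limma and the genome build mm10 were used; any use of strand, the annotation, the counter and the aligner were not given in the sources used here. From the values, each deposited log2 column was log2 of CPM with 0.5 added to the reads. Undoing the log and resolving each pair of columns as mixtures with shares of 60% and 40% gave whole counts, within 0.05, for 99.9% of 115920 values and 0 negative values, against 57.35% at a share of 55%, 22.55% at 65% and 20.56 to 21.07% for pairs from different groups. A mixing step is named in none of the sources read. Each resolved library takes its number from the column to which it gave the larger share.

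All 6 libraries were fitted with 1 mean per group by limma 3.58.1 in R 4.3.3 (lmFit, eBayes with an intensity trend) on log2 CPM of the resolved counts, scaled by library totals of 14835957 to 18247812 reads. Fold changes of genes with few reads are understated on this scale. Genes needed 0.577 CPM (10 reads in the median library) in 2 libraries and 15 reads in all, which left 14447. P-values were adjusted by Benjamini-Hochberg over these in each comparison. The script was tested on simulated data. Alternatives were the deposited columns, median ratio scaling, quantile normalization, no filter, 2 reads added, limma-voom, robust empirical Bayes, a replicate block and leaving out each library.

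The clock genes and lists were chosen with earlier results of these data known. Named genes were the 10 clock genes, called genes of the lists, the 4 others of each list that averaged 50 or more reads and had the widest range, and the 5 genes of at least 100 mean reads with the profile most like that of Dbp and of Arntl. Lists were clock partners, clock outputs, glucocorticoid targets and immediate early genes, with markers of cardiomyocytes, endothelium, fibroblasts, macrophages, lymphocytes, red cells, platelets, brown fat and lung. Promoter sequences are RefSeq's.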

Additional observations from a re-analysis of the deposited data

How the results depend on the processing

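Called genes numbered 23 between TAC and sham, 0 between knockdown and TAC and 35 between knockdown and sham by limma. With the deposited columns taken as libraries these became 13812, 12137 and 13669, with 7, 8 and 6 clock genes called, but those columns mix the same reads, so they are not separate samples. With no filter the counts were 9 between TAC and sham and 14 between knockdown and sham, with 2 reads added 42 between TAC and sham, and with limma-voom 18 between knockdown and sham. Leaving out 1 library gave 3 (without TAC replicate 2) to 45 (without sham replicate 1) between TAC and sham, 0 between knockdown and TAC, and 5 (without sham replicate 2) to 50 (without sham replicate 1) between knockdown and sham. The count of clock genes called between TAC and sham was 1, Per2, with median ratio scaling, quantile normalization, 2 reads added, robust empirical Bayes and the replicate block, and 0 to 1 when 1 library was left out. Where this left 1 library in a group, that library was assumed to vary like the others. The cause was not tested.

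The replicate number as a block gave 40 genes between TAC and sham and 1 between knockdown and TAC, and an adjusted p of 0.0388 for Per2 between TAC and sham. Same-numbered libraries deviated with correlations of -0.0413, 0.0659 and 0.00495 between pairs of groups, so the numbers are not known to pair the samples.

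Of the 30 fold changes of clock genes, 15 turned sign in at least 1 fit without 1 library. Between TAC and sham the log2 range was -0.28 to 0.24 for Dbp, -0.15 to 0.10 for Tef, -0.59 to 0.026 for Per1, -0.25 to 0.27 for Nr1d1 and -0.95 to 0.21 for Ciart. Between knockdown and TAC it was -0.11 to 0.14 for Tef, -0.076 to 0.54 for Per1, -0.057 to 0.38 for Per2, -0.011 to 0.12 for Clock and -0.29 to 0.10 for Arntl. Between knockdown and sham it was -0.079 to 0.052 for Tef, -0.19 to 0.094 for Per1, -0.13 to 0.31 for Per3, -0.048 to 0.034 for Nr1d2 and -0.064 to 0.32 for Arntl. Nr1d1 between TAC and sham was -0.022 with median ratio scaling and -0.017 with quantile normalization, and Tef between knockdown and TAC was -0.0027 with median ratio scaling. Depth limits Arntl most, at 51 to 80 reads.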

Other observations

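The genes whose profile over the 6 libraries was most like that of Dbp were not clock genes. Likeness was the root mean square difference of log2 CPM after each gene was centred on its own mean, over 10247 genes that averaged 100 or more reads. The nearest were Ccdc88c (0.049), Zfp120 (0.064), Gm13416 (0.070), Asb13 (0.073) and Il6ra (0.075), where the profile of Dbp itself had a root mean square of 0.227. Among the clock genes Per3 came closest, at position 344 (0.156), followed by Nr1d1 at 737 (0.178) and Tef at 880 (0.182), while Per2 was at 9892 (0.433).

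For Arntl the nearest of 10248 genes were Arl16 (0.032), Miga2 (0.045), Flnc (0.045), Tomm70a (0.051) and Xirp2 (0.051), with 0.173 for the profile of Arntl itself. Clock was at position 813 (0.137), and Ciart (0.652), Per2 (0.514) and Per1 (0.396) were among the farthest, at positions 10213, 10132 and 9791. With 6 libraries and so many genes, close profiles are a description of these libraries.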
